A study of Mus musculus with 18 samples.

Results

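Kinesins and cytoplasmic dynein are the motors that walk along microtubules. Most kinesins move cargo toward the fast-growing plus end, which in axons points to the synapse. Dynein, held to its cargo by the dynactin complex, moves toward the minus end, which in many cells lies at the centrosome. *Pcm1* encodes the scaffold of the centriolar satellites, granules that collect around the centrosome by dynein-dependent transport, and the study asked how gene expression in the adult brain differs in mice that lack it. The messenger RNAs of the motors themselves are described here: the protein-coding kinesins (Kif and Kifc symbols), the kinesin-1 light chains (Klc), the cytoplasmic dynein 1 subunits (Dync1, Dynll and Dynlt symbols) and dynactin subunits 1 to 6. The rule used symbols only and left out *Kif3a* and *Kif3b*. It matched 63 counted genes, of which 58 had at least 10 reads in at least 1 of the 18 libraries, among 17545 genes tested.

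The samples were adult mice with a gene-trap insertion in both copies of *Pcm1* and their wild-type (WT) littermates. The mutants are named *Pcm1-/-* here and PCM1 KO in the sample labels. The mice were on a C57BL/6J background, backcrossed for at least 3 generations. Frontal cortex, striatum and hippocampus were sequenced from 3 mice of each genotype, giving 3 libraries in each of 6 groups. The insertion came from embryonic stem cells and was carried in all tissues rather than in a chosen cell type. Each library is whole tissue, in which fewer cells of a type and less RNA per cell cannot be told apart. Each of the 6 groups holds 1 library in which the Y-linked *Ddx3y* exceeded *Xist*, so no group is of 1 sex.

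Counts on genes ranged from 24950537 to 33405081 per library. Counts were scaled by TMM factors to CPM, a count per library of fixed size, and levels of different genes were compared as CPM per kb of exon. *Pcm1* ran from 119.9 to 172 CPM over the WT libraries and from 11.8 to 17.6 CPM over the *Pcm1-/-* libraries with no overlap, as the labels would have it. Markers of striatal projection neurons were all 5 higher in WT striatum than in WT frontal cortex, and those of cortical excitatory neurons all 5 lower. WT striatum replicate 3 stood apart from the other WT striatum libraries. It held 5992 CPM of 6 choroid plexus markers against 51.1 and 52.2 CPM in those. The same sum ran from 2150 to 6284 CPM in WT and from 220.15 to 4160 CPM in *Pcm1-/-* hippocampus and was at most 10.8 CPM in the frontal cortex. The striatal calls that were lost without this library are named beside the results. WT striatum was sequenced only on lane 5 and *Pcm1-/-* striatum only on lanes 3 and 4. Effects of lane and of genotype cannot be told apart there. WT frontal cortex and WT hippocampus were spread over lanes 3, 4 and 5, so lane also partly follows region in the WT striatal comparisons.

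The 58 genes split by role into 3 kinesin-1 heavy chains, 4 kinesin-1 light chains, 10 other transport kinesins, 6 microtubule-regulating or atypical members, 6 ciliary kinesins, 13 mitotic kinesins, 10 dynein subunits and 6 dynactin subunits. The 5 matching genes below the minimum were *Dynlt1b*, with at most 8 reads in any library, *Dynlt1c* and *Kif12*, with at most 2, *Kif28*, with at most 9, and *Kif2b*, with 0. Of the 58 genes, 50 had at least 10 reads in all 18 libraries. *Kif14*, *Kif18b* and *Dynlt1f* reached 10 reads in 1 library, *Kif2c* in 2, *Dynlt1a* and *Kifc1* in 11, *Kif23* in 13 and *Kif15* in 16, so values for these rest on few reads.

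The counts of the Dynlt1 genes, which encode the Tctex-1 light chain of dynein, cannot be assigned to a single gene, and their sequences show why. *Dynlt1a* (chr17:6306340-6317500, minus strand), *Dynlt1b* (chr17:6430112-6436296, plus), *Dynlt1c* (chr17:6601671-6609774, plus) and *Dynlt1f* (chr17:6646602-6655900, minus; GRCm38) have coding sequences of 339 bases that differ at 1 position. Over the first 60 coding bases, with that position in capitals, they read as follows.
Dynlt1a: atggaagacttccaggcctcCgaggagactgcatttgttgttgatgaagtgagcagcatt
Dynlt1b: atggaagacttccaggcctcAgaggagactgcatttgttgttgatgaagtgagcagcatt
Dynlt1c: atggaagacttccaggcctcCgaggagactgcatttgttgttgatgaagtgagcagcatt
Dynlt1f: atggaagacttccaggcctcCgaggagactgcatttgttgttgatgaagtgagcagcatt
The authors kept only reads with a single position in the genome. Other genes' transcripts also hold 88.59% of the 50-base windows of *Dynlt1f* and 63.0% of those of *Dynlt1a*, so their low counts measure what could be placed and not the amount of Tctex-1 mRNA. The mitotic motor *Kifc1* and its copy *Kifc5b* share 39.75% and 37.41% of their windows with other genes, *Kif24* 5.03% and *Dynll1* 3.1%. No other member shared more than 1.97%. The annotation places 28 of the 58 genes over a gene on the opposite strand, among them *Klc3* over the repair gene Ercc2 and *Kifc2* over Cyhr1, and *Kif17* over Sh2d5 on the same strand. The strand setting of the counting is not given in the sources used here, so reads of such partners cannot be told apart with certainty.

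For 43 of the members RefSeq promoters were at hand, 49 in all, each spanning 250 bases before to 50 bases after the annotated start on GRCm38.p6. The 3 shown are from a member with its highest level in the striatum (*Kif17*), a ciliary member that was low in the frontal cortex (*Kif6*) and a member low in the striatum (*Dync1i1*). They are *Kif17* at chr4:138262001-138262300, *Kif6* at chr17:49614922-49615221 and *Dync1i1* at chr6:5725389-5725688, all on the plus strand. Capitals mark the GC box GGGCGG, the letters GTTGCC of the X-box that RFX factors of ciliated cells bind, and the cAMP response element TGACGTCA, each searched on both strands with no overlap between the matches.
Kif17: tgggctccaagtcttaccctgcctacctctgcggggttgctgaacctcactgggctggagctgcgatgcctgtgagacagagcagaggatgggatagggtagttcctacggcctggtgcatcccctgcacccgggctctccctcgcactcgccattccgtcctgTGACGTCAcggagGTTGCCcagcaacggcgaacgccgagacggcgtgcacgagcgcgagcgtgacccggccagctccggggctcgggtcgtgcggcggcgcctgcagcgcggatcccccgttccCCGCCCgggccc
Kif6: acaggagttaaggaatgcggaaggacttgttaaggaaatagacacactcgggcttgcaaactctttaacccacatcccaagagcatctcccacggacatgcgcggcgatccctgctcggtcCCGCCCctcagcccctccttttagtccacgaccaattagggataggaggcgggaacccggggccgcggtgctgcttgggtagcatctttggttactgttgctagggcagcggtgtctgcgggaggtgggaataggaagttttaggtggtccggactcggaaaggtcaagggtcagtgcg
Dync1i1: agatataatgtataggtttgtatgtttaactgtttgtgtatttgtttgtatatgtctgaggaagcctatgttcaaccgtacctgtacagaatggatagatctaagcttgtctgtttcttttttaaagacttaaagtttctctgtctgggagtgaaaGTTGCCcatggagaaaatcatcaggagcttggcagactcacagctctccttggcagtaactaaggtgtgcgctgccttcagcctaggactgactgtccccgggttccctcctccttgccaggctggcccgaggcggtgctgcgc
The *Kif17* window holds 1 match to each of the 3 motifs, that of *Kif6* a GC box and that of *Dync1i1* the GTTGCC letters. The *Kif17* window lies inside the longer gene span of the GENCODE annotation, chr4:138250435-138301967. GGGCGG was in 32 of the 49 member promoters and in 35.66% of all 32851 promoters, GTTGCC in 15 of 49 and in 12.51% of all, and TGACGTCA in 5 of 49 and in 1.79% of all. A match describes the letters of the window and was not tested for binding.

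Levels followed the role of the motors, from the kinesin-1 heavy chains down to the mitotic kinesins. Together the 58 genes held 1.38% ± 0.067 of the counts on genes in WT frontal cortex, 1.18% ± 0.023 in WT striatum and 1.11% ± 0.019 in WT hippocampus (SD, n = 3 each). In the *Pcm1-/-* libraries of these regions the shares were 1.34% ± 0.024, 1.10% ± 0.040 and 1.07% ± 0.011. The genotypes overlapped in the frontal cortex and not in the striatum or hippocampus, and the difference in share was not tested. *Kif5a*, a neuronal kinesin-1 heavy chain (chr10:127225696-127263348, minus strand), was first of the 58 at a mean of 427 CPM per kb over the WT regions and alone made up 25.8% of the members' counts in WT frontal cortex. The LC8 light chain *Dynll2* followed at 224 CPM per kb, then *Kif5c* at 163, the synaptic vesicle motor *Kif1a* at 151, the light chain *Klc1* at 134 and the minus-end kinesin *Kifc2* at 104 CPM per kb. Dynactin subunits lay between 10.03 and 61.0 CPM per kb, with the p150Glued subunit *Dctn1* highest. Ciliary kinesins lay between 0.137 and 1.46 CPM per kb and mitotic kinesins between 0.0237 and 0.272 CPM per kb.

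**Figure D1:**
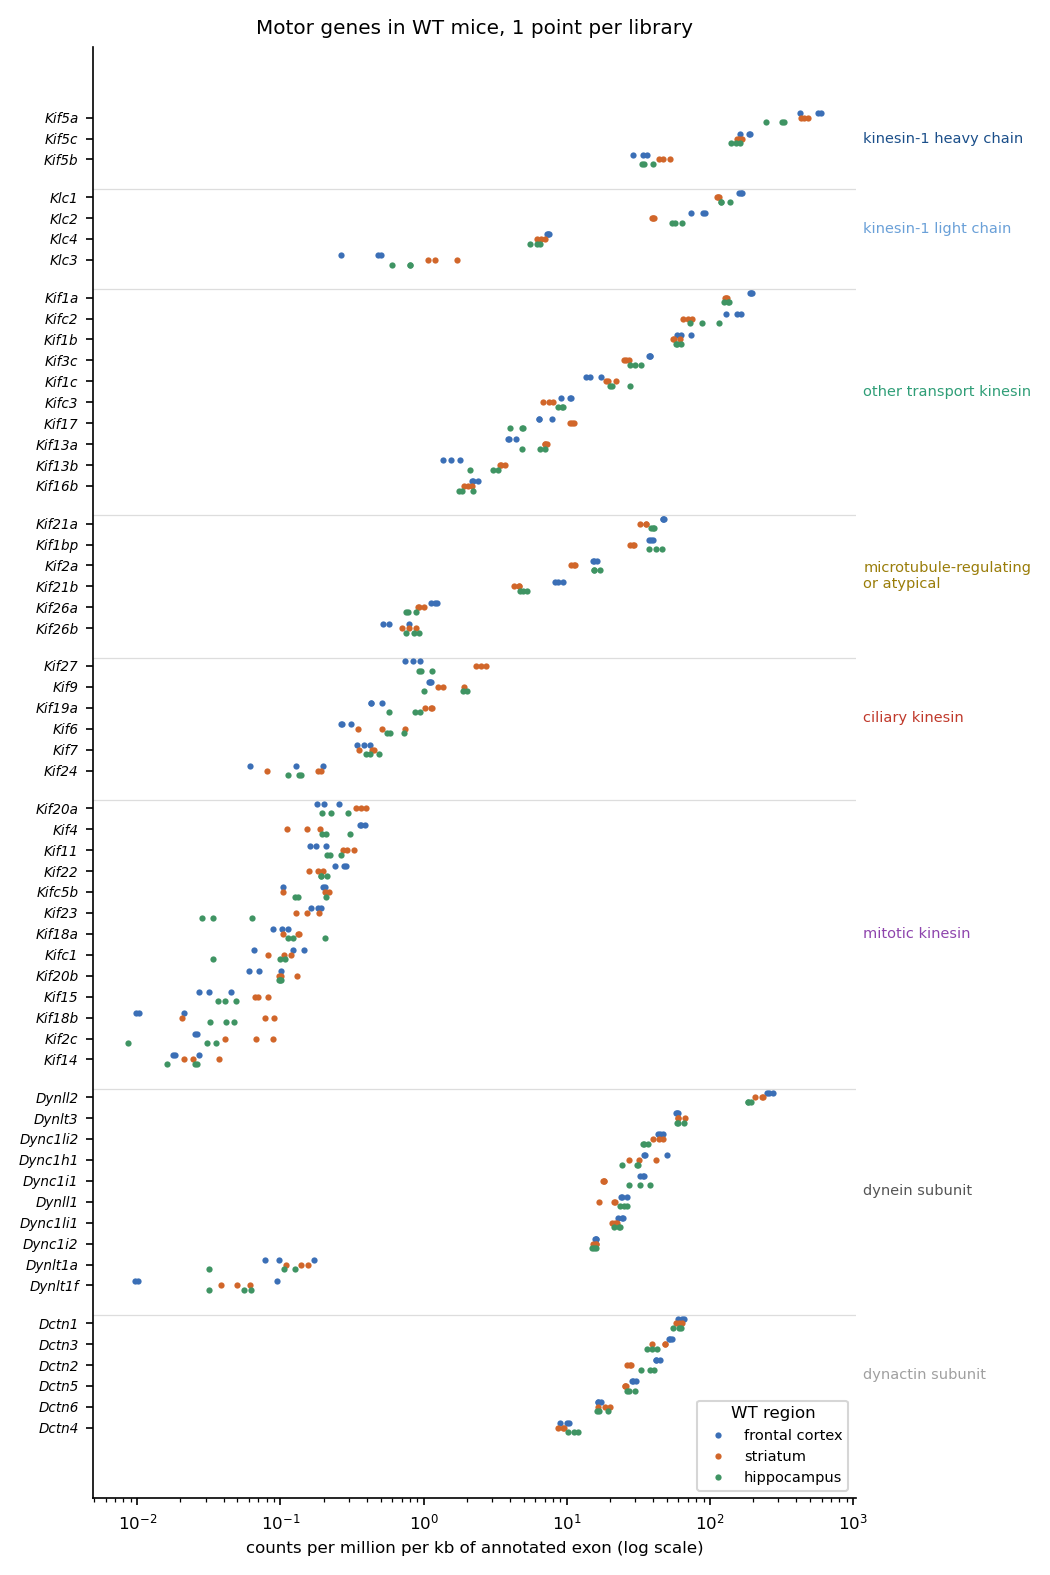
Level of each of the 58 motor genes in CPM per kb of exon (log axis) in the 9 WT libraries, with 1 point per library, grouped by role. Kinesin-1 heavy chains reach 427 CPM per kb (*Kif5a*, mean over the WT regions) and no mitotic kinesin has a mean above 0.272. A count of 0 in 1 library of *Kif2c* is not drawn.

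The largest differences among these genes were between brain regions. In WT mice 29 of the 58 genes (50%) differed between striatum and frontal cortex at an adjusted p under 0.05, 13 of them higher in the striatum and 16 lower, while 41.5% of all tested genes did, 20.6% higher and 20.9% lower. The hippocampus differed from the frontal cortex in 20 of 58 genes (34.5%), 5 higher and 15 lower, beside 29.8% of all genes (14.5% and 15.3%), and the striatum from the hippocampus in 16 (27.6%), 8 each way, beside 29.2% of all genes (14.4% and 14.8%). Without WT striatum replicate 3, 22 members (37.9%, beside 37.4% of all genes) differed between striatum and frontal cortex and 13 (22.4%, beside 29.4%) between striatum and hippocampus. The calls lost were *Dctn5*, *Dynll1*, *Dynll2*, *Kif18b*, *Kif1c*, *Kif20a* and *Kif6* in the former comparison and *Dctn4*, *Dynll1*, *Kifc3* and *Klc3* in the latter, where *Dctn3* gained one. Without WT frontal cortex replicate 3, 22 members also differed between striatum and frontal cortex, beside 35.8% of all genes. With lane as a term 23, 23 and 14 members were called in the 3 comparisons in order, beside 37.2%, 33.2% and 25.9% of all genes. All 3 regions came from the same mice, and the reported regional fits hold no term for the animal. A block by the animal number of the file names called 30, 26 and 18 members, beside 48.1%, 37.0% and 35.1% of all genes. Nothing particular to the motor genes is read from these shares. The frontal cortex was the highest WT region for 28 genes, the striatum for 19 and the hippocampus for 11, and the highest region was the same in the *Pcm1-/-* libraries for 51 of the 58. Except where DESeq2 is named, adjusted p-values come from the quasi-likelihood test of edgeR, adjusted by Benjamini and Hochberg's method over every gene tested, and differences are on the log2 scale with their standard error (SE).

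Among the kinesin-1 heavy chains, which form the motor of fast axonal transport, the balance of the 3 genes shifted between regions. *Kif5a* measured 4159.5, 3949 and 2946 CPM in the WT frontal cortex libraries, 3035, 3372 and 3150.0 CPM in WT striatum and 2308, 2235 and 1714 CPM in WT hippocampus. Every hippocampal library was below every library of the other regions, and frontal cortex replicate 3 was well below the other frontal cortex libraries. *Kif5a* was lower in hippocampus than in frontal cortex by −0.82 (SE 0.15, adjusted p = 0.00248) and higher in striatum than in hippocampus by 0.62 (SE 0.15, adjusted p = 0.0109). *Kif5b*, the heavy chain used by most cell types, was 288, 270.0 and 232 CPM in WT frontal cortex and 353, 374 and 418 CPM in WT striatum, with no overlap, and rose by 0.54 (adjusted p = 0.00218) or, without striatum replicate 3, by 0.47 (adjusted p = 0.00862). *Kif5c*, the other neuronal heavy chain, ran from 1164 to 1348 CPM in WT frontal cortex, from 1102 to 1184 CPM in striatum and from 994 to 1149.6 CPM in hippocampus and passed the test in none of the WT comparisons, although its hippocampal difference from the frontal cortex passed under several of the alternatives tried. As a share of the 3 heavy chains per kb, *Kif5a* held 71.0% ± 2.06 in WT frontal cortex, 68.7% ± 0.67 in striatum and 61.3% ± 2.50 in hippocampus, and *Kif5c* 24.5% ± 1.84, 24.1% ± 0.28 and 31.2% ± 2.07 (SD, n = 3 each).

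Light chains link kinesin-1 to its cargo, and 2 of them, *Klc2* and *Klc3*, moved in opposite directions in the striatum. *Klc2* (chr19:5107746-5118560, minus strand) was 368, 383 and 305 CPM in WT frontal cortex, 164, 162 and 167 CPM in striatum and 234, 264 and 223 CPM in hippocampus. The 3 regions did not overlap. *Klc2* was lower in striatum than in frontal cortex by −1.10 (SE 0.10, adjusted p = 1.13e-05) and than in hippocampus by −0.54 (SE 0.10, adjusted p = 0.00172). *Klc3*, a light chain best known from the sperm tail, was low everywhere, at 1.26, 1.33 and 0.701 CPM in WT frontal cortex, 3.20, 2.85 and 4.50 CPM in striatum and 2.12, 2.14 and 1.58 CPM in hippocampus. Its striatal level rose over the frontal cortex by 1.68 (SE 0.28, adjusted p = 0.000786) and over the hippocampus by 0.86 (SE 0.27, adjusted p = 0.0335). Striatum replicate 3, the library with the choroid plexus markers, was the highest for *Klc3*, and without it the rises were 1.46 (still called) and 0.64 (adjusted p = 0.112). The call against the hippocampus was also lost without striatum replicate 1 (0.92, adjusted p = 0.0596) and without hippocampus replicate 1, 2 or 3 (adjusted p = 0.0551, 0.0567 and 0.104). *Klc1* fell in the striatum by −0.52 and in the hippocampus by −0.39 relative to the frontal cortex, and *Klc4* fell in the hippocampus by −0.28.

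Of the 10 other transport kinesins, 4 rose and 4 fell in the striatum relative to the frontal cortex, beside 20.6% and 20.9% of all genes. *Kif17*, which carries NMDA receptor vesicles in dendrites (its promoter is printed above), was 29.2, 36.3 and 29.4 CPM in WT frontal cortex, 48.2, 51.2 and 49.8 CPM in striatum and 22.7, 22.1 and 18.4 CPM in hippocampus. All 3 regions were apart, with the striatum highest and the hippocampus lowest. The differences were 1.24 between striatum and hippocampus (SE 0.11, adjusted p = 1.15e-05), 0.66 between striatum and frontal cortex and −0.59 between hippocampus and frontal cortex (SE 0.11, adjusted p = 0.00254). *Kifc2*, a minus-end kinesin of neurons, went the other way, with 606, 645 and 509 CPM in WT frontal cortex, 255, 276 and 294 CPM in striatum and 345, 457 and 283 CPM in hippocampus. It fell by −1.09 in the striatum (SE 0.16, adjusted p = 0.000344) and by −0.70 in the hippocampus (adjusted p = 0.00777). *Kif1a*, the motor of synaptic vesicle precursors, was 1759, 1804 and 1834 CPM in WT frontal cortex, 1198, 1225 and 1192 CPM in striatum and 1247, 1260.2 and 1162 CPM in hippocampus. Both of the other regions lay below every frontal cortex library, by −0.58 and −0.56, and they overlapped with each other.

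*Kif13a*, *Kif13b* and *Kif1c* were higher outside the frontal cortex. *Kif13b* (chr14:64647265-64809617, plus strand), a motor that binds Discs large and regulates myelination, was 23.2, 17.8 and 20.1 CPM in WT frontal cortex, 48.2, 45.2 and 44.5 CPM in striatum and 43.0, 27.5 and 39.4 CPM in hippocampus. It rose by 1.18 in the striatum (SE 0.16, adjusted p = 0.000162) and by 0.85 in the hippocampus (SE 0.16, adjusted p = 0.00239). *Kif13a*, an endosomal motor, rose by 0.80 and 0.58 and *Kif1c* by 0.41 and 0.59 (SE 0.13, adjusted p = 0.00805, in the hippocampus). The striatal call of *Kif1c* was lost without striatum replicate 3 (0.33, adjusted p = 0.101). The 6 oligodendrocyte markers moved the same way, from a summed 1903 to 2544 CPM in WT frontal cortex to 9223 to 9422 CPM in striatum and 4854 to 9603 CPM in hippocampus, all 6 called higher in both. WT hippocampus replicate 2 had the least *Kif13b* of the 3 WT hippocampal libraries and the lowest oligodendrocyte sum, 4854 CPM. It was also lowest for the ependymal (24.5 CPM), microglial (309 CPM) and endothelial (153 CPM) sums and highest for the neuronal sum (6204 CPM). The part of oligodendrocyte content in these results was not tested.

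**Figure D2:**
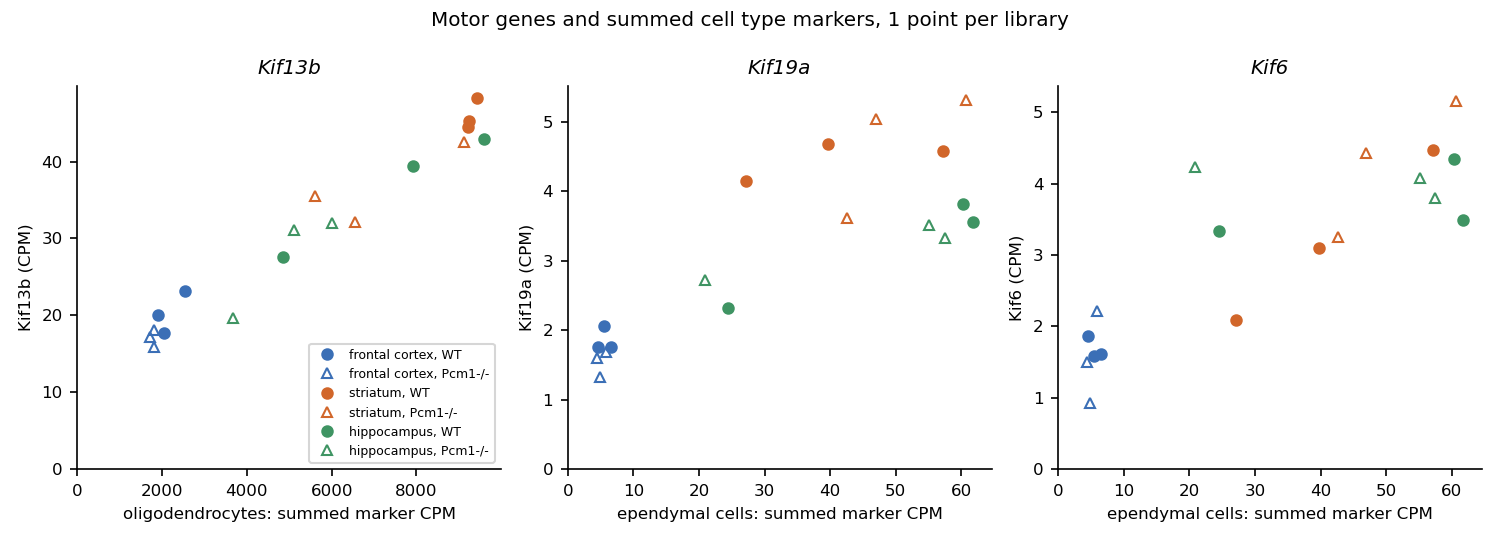
*Kif13b* against the summed CPM of 6 oligodendrocyte markers, and *Kif19a* and *Kif6* against the summed CPM of 6 ependymal markers, in all 18 libraries, with 1 point per library coloured by region and shaped by genotype. Frontal cortex libraries have the lowest marker sums in each panel, with at most 2544 CPM of oligodendrocyte markers in the WT libraries and at most 6.58 CPM of ependymal markers.

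Members that regulate microtubules or are atypical numbered 6, of which 4 fell in the striatum and 3 in the hippocampus relative to the frontal cortex, beside 20.9% and 15.3% of all genes. In WT hippocampus the other 3 had a positive difference. *Kif21b* (chr1:136131389-136177998, plus strand), a kinesin-4 that limits microtubule growth in dendrites, was 114, 105 and 100.1 CPM in WT frontal cortex, 52.2, 56.2 and 56.4 CPM in striatum and 60.5, 64.6 and 57.2 CPM in hippocampus. It fell by −0.95 (SE 0.08, adjusted p = 4.74e-06) and −0.81 (SE 0.08, adjusted p = 3.4e-05), with all frontal cortex libraries above all others. Its paralog *Kif21a* fell by −0.44 and −0.25. *Kif2a*, a depolymerase that prunes neurites, was 98.2, 108 and 98.9 CPM in WT hippocampus and 68.2, 71.6 and 73.4 CPM in striatum, a difference of −0.51 (SE 0.07, adjusted p = 0.000203). *Kif1bp*, a partner of the Kif1 motors with no motor domain of its own, was 183, 224 and 206 CPM in WT hippocampus and 144, 141 and 136 CPM in striatum, a difference of −0.54 (SE 0.08, adjusted p = 0.000622).

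Of the 6 ciliary kinesins 3 were called higher in WT striatum than in WT frontal cortex (*Kif27*, *Kif19a* and *Kif6*), beside 20.6% of all genes, and the other 3 did not pass the test. *Kif27* (chr13:58287502-58359122, minus strand), related to the Hedgehog regulator *Kif7* and tied to motile cilia, was 4.38, 4.95 and 3.87 CPM in WT frontal cortex, 12.1, 13.004 and 14.3 CPM in striatum and 5.93, 4.87 and 4.97 CPM in hippocampus. Only the striatum was apart, by 1.58 over the frontal cortex (SE 0.14, adjusted p = 1.1e-05) and 1.33 over the hippocampus (SE 0.14, adjusted p = 4.15e-05). *Kif19a*, the depolymerase that sets the length of motile cilia, was 1.75, 1.75 and 2.06 CPM in WT frontal cortex, 4.15, 4.68 and 4.57 CPM in striatum and 3.81, 2.32 and 3.56 CPM in hippocampus. It rose by 1.27 in the striatum (SE 0.20, adjusted p = 0.000625) and by 0.80 in the hippocampus (SE 0.20, adjusted p = 0.0148), a call that ended without WT frontal cortex replicate 1 (adjusted p = 0.0509), frontal cortex replicate 2 (0.0559) or hippocampus replicate 1 (0.0510). *Kif6*, a kinesin of ependymal cilia, was 1.61, 1.86 and 1.59 CPM in WT frontal cortex, 2.10, 3.10 and 4.47 CPM in striatum and 4.35, 3.33 and 3.49 CPM in hippocampus, and rose by 0.94 and by 1.14 (SE 0.26, adjusted p = 0.00859, in the hippocampus). The 6 ependymal markers rose with them, from 4.60 to 6.58 CPM in WT frontal cortex to 27.1 to 57.1 CPM in striatum and 24.5 to 61.7 CPM in hippocampus. Their sums varied widely and overlapped between striatum and hippocampus, where none of the markers was called. Without WT striatum replicate 3 the striatal rises were 1.51 for *Kif27* and 1.25 for *Kif19a*, both called, while that of *Kif6* was 0.62 and no longer called (adjusted p = 0.0622). The part of ependymal content was not tested.

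Mitotic kinesins, which move chromosomes and build the spindle, were near the limit of detection in this adult tissue. In the striatum 4 of 13 were called higher than in the frontal cortex (*Kif11*, *Kif15*, *Kif18b* and *Kif20a*) and *Kif4* lower, beside 20.6% of all genes higher and 20.9% lower. *Kif18b* reached 10 reads in 1 library, *Pcm1-/-* striatum replicate 3, so it was tested only through the region in which it was then called higher, and its WT groups overlap. Without WT striatum replicate 3 *Kif11*, *Kif15* and *Kif4* were still called, and *Kif18b* (adjusted p = 0.0823) and *Kif20a* (adjusted p = 0.0640) were not. *Kif23*, a motor of the midbody, had 41, 40 and 35 reads in WT frontal cortex, 33, 41 and 29 in striatum and 13, 6 and 8 in hippocampus, so that the hippocampus was lower by −2.09 than the frontal cortex (SE 0.32, adjusted p = 0.000789) and the striatum higher by 1.90 than the hippocampus (SE 0.32, adjusted p = 0.00113). The summed CPM of 6 markers of cycling cells was 4.22 to 4.42 in WT frontal cortex, 6.95 to 8.97 in striatum and 4.53 to 6.55 in hippocampus. These markers did not move together. Against the frontal cortex, 3 of the 6 were called higher and 1 lower in the striatum, and 1 each way in the hippocampus. Their part was not tested.

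No dynein or dynactin subunit was called higher in the striatum or hippocampus than in the frontal cortex in WT mice, while 3 of 10 dynein and 2 of 6 dynactin subunits fell in the striatum, where 20.9% of all genes did, and nothing is read from these few genes. Of these 5 falls, those of *Dynll1*, *Dynll2* and *Dctn5* were not called without WT striatum replicate 3. The heavy chain *Dync1h1*, the motor subunit itself, was 544, 551 and 783 CPM in WT frontal cortex, 651, 497 and 422 CPM in striatum and 489, 379.7 and 481 CPM in hippocampus. These ranges overlapped between striatum and both other regions, and *Dync1h1* passed the test in none. Its difference between hippocampus and frontal cortex, −0.48 (adjusted p = 0.0807), passed with a block by animal (−0.47, adjusted p = 0.0103), with DESeq2 (0.0421), in 1 fit of all 18 libraries (0.0422) and with a length trend removed (0.0468). Of the 2 intermediate chains, *Dync1i1* differed and *Dync1i2* did not pass the test. *Dync1i1* (chr6:5725639-6028039, plus strand), the neuronal intermediate chain whose promoter is printed above, was 115, 121 and 124 CPM in WT frontal cortex, 64.2, 64.6 and 64.6 CPM in striatum and 96.3, 136 and 115 CPM in hippocampus. The striatum was below every other library, by −0.90 against the frontal cortex (SE 0.11, adjusted p = 9.69e-05) and −0.84 against the hippocampus (SE 0.11, adjusted p = 0.000197). Of both intermediate chains per kb, *Dync1i1* made up 67.9% ± 0.58 in WT frontal cortex, 53.5% ± 0.65 in striatum and 67.5% ± 4.28 in hippocampus (SD, n = 3 each), and the widely expressed *Dync1i2* the rest. Summed neuronal markers were 7431 to 8578, 3428 to 3745 and 4925 to 6204 CPM in these groups, and their part was not tested.

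*Dctn1*, the p150Glued subunit of dynactin, was 426, 413 and 390.3 CPM in WT frontal cortex, 395, 413 and 373 CPM in striatum and 394, 408 and 361 CPM in hippocampus, with overlap between all regions and no call. *Dctn2*, dynamitin, was 201, 215 and 202 CPM in WT frontal cortex and 131, 134 and 126 CPM in striatum and fell by −0.66. *Dctn5* fell by −0.19 in the striatum and *Dctn3* by −0.43 in the hippocampus.

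Other genes of microtubule transport, 45 adaptors, regulators, dynactin partners and microtubule-associated proteins, were counted in the same way. Their calls without WT striatum replicate 3 are not given here. Of these 8 were called higher and 24 lower in WT striatum than in WT frontal cortex, 6 higher and 18 lower in hippocampus than in frontal cortex, and 7 higher and 12 lower in striatum than in hippocampus. Of all genes 41.5%, 29.8% and 29.2% were called in these comparisons, in near equal numbers each way. Of 5 neuronal markers 4 were called lower in striatum and 4 in hippocampus than in frontal cortex, with median differences of −1.18 and −0.45, and 3 lower in striatum than in hippocampus, and their part in these counts was not tested. *Rilp*, the Rab7 effector that recruits dynein to late endosomes, rose most over the frontal cortex in WT mice, by 1.43 (striatum) and 1.61 (hippocampus). The largest falls were in calsyntenin-1 (*Clstn1*), a cargo link of the kinesin light chains, by −1.05 in the striatum, and in doublecortin (*Dcx*), by −1.56 in the hippocampus. Between striatum and hippocampus *Map4* fell most, by −0.73, and the mitochondrial adaptor *Trak2* rose by 0.57. The largest rise there was 0.66, in a microtubule-associated protein. In *Pcm1-/-* striatum and hippocampus the largest rises of the 45 over the frontal cortex were 0.91 and 1.02. The largest falls there were −1.05 and −1.34.

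The regional differences were also measured in the *Pcm1-/-* libraries, which are other animals. In these, 33 members differed between striatum and frontal cortex (54.3% of all genes), 30 between hippocampus and frontal cortex (41.5%) and 22 between striatum and hippocampus (45.0%). Of the 29 genes called in WT mice between striatum and frontal cortex, 25 were called in the same direction in *Pcm1-/-* mice, which is 86.2% of the WT list and 75.8% of the mutant list. The genes not shared were *Dctn5*, *Kif15*, *Kif20a* and *Kif4*. For hippocampus against frontal cortex all 20 WT calls were shared, 66.7% of the mutant list, and for striatum against hippocampus 15 of 16, or 93.8% and 68.2%, all but *Klc3*. Over all genes these shares were 91.1% and 69.7%, 85.8% and 61.7%, and 93.3% and 60.5%. No member was called in opposite directions, and every WT call had the same sign in the mutants. In *Pcm1-/-* striatum against frontal cortex *Klc2* differed by −1.21, *Dync1i1* by −1.04, *Kif27* by 1.93 and *Kif19a* by 1.60, and in striatum against hippocampus *Kif17* by 1.21. *Kif26b*, an atypical kinesin, was called higher in the striatum (0.98) and in the hippocampus (0.71) than in the frontal cortex in *Pcm1-/-* mice and in neither in WT mice. Its genotype effect differed between regions at an unadjusted p of 0.0481 (adjusted p = 0.901), which does not pass.

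**Figure D3:**
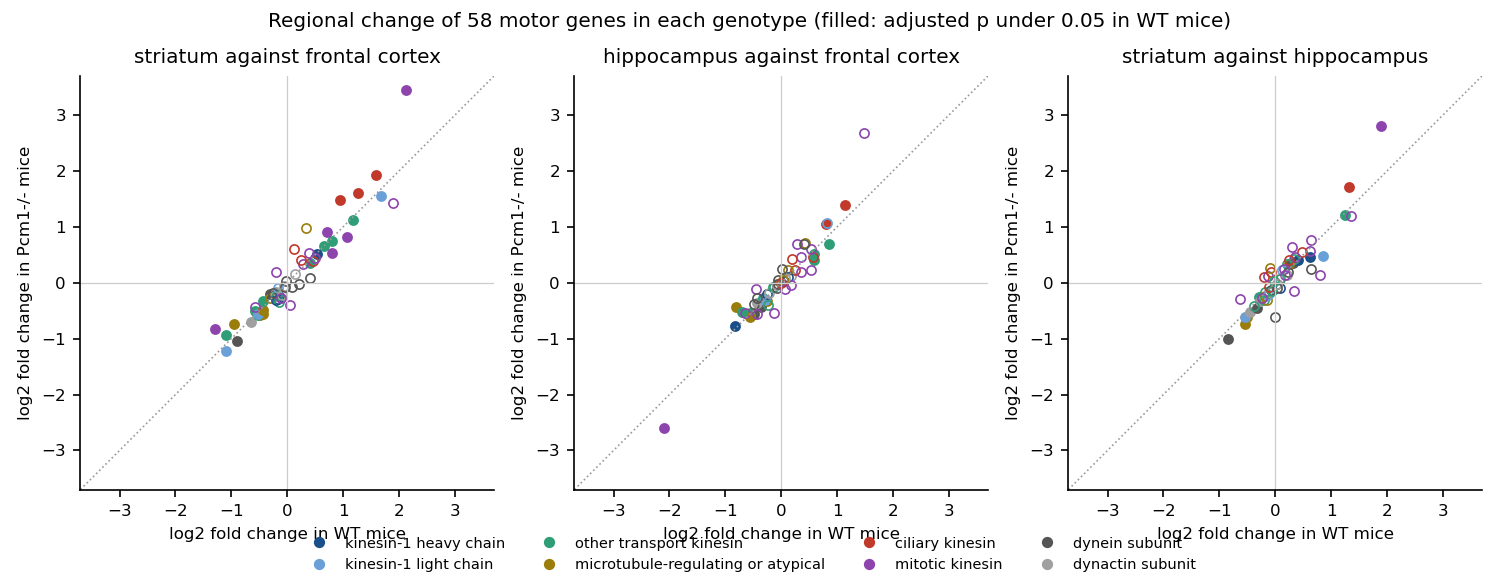
Log2 difference between 2 regions in WT mice (horizontal) against that in *Pcm1-/-* mice (vertical) for the 58 motor genes, 1 panel per pair of regions, with filled points for genes called in WT mice. All 29, 20 and 16 filled points have the same sign in both genotypes.

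Between genotypes no motor gene passed an adjusted p of 0.05 in any region. In the frontal cortex 0 of 58 were called beside 1.74% of all genes (306 genes). That number of genes was not stable: it was 29 with lane as a term, 11, 27 and 54 without *Pcm1-/-* replicate 1, 2 or 3, 88 and 71 without WT replicate 1 or 2, and 825 without WT replicate 3. The striatum gave 0 beside 0.0285% (5 genes) and the hippocampus 0 beside 0.0171% (3 genes). At an unadjusted p under 0.05 there were 7 members in the frontal cortex, beside 15.3% of all genes. All 7 were lower in *Pcm1-/-*, where 7.84% of all genes were higher and 7.47% lower. The striatum had 5 (13.5% of all genes), 2 higher (6.54%) and 3 lower (6.98%), and the hippocampus 1 (9.89%), which was higher (4.84% higher and 5.06% lower). With DESeq2 the counts were 1, 0 and 0, beside 3.92%, 2.78% and 1.21% of all genes (687, 488 and 212 genes). The members' median difference was −0.060 (frontal cortex), −0.045 (striatum) and −0.035 (hippocampus), beside −0.0066, −0.0023 and −0.00033 over all genes. By sign 35, 36 and 32 of the 58 were lower in *Pcm1-/-* in the 3 regions, where 51.6%, 50.6% and 50.1% of all genes were. Genotype groups did not overlap for 3 members higher and 11 lower in the frontal cortex (21.3% of all genes, 1972 higher and 1770 lower). The striatum had 1 higher and 5 lower (18.9%, 1741 and 1582 genes), and the hippocampus 2 higher and 5 lower (16.3%, 1629 and 1232 genes).

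**Figure D4:**
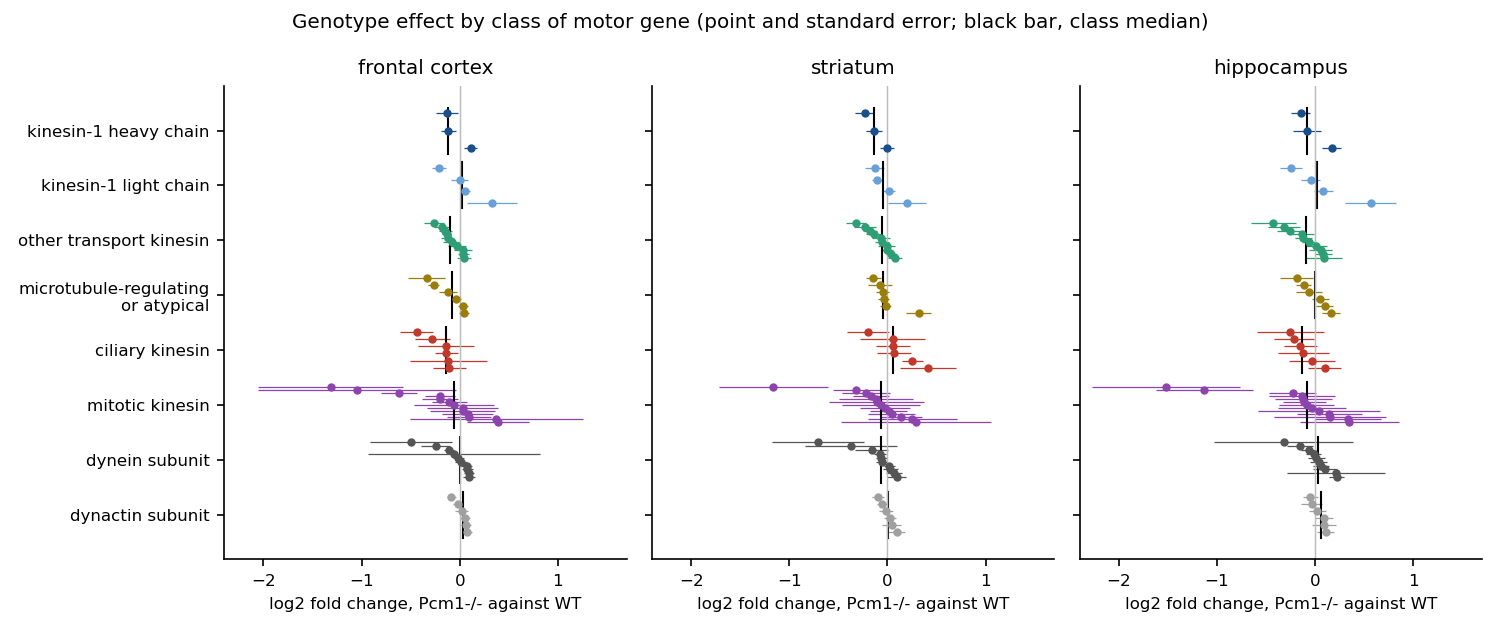
Log2 difference *Pcm1-/-* minus WT of each motor gene with its standard error, by role and region, with a black bar at the median of each role. Medians by role lie between −0.14 and 0.06, and no gene passes an adjusted p of 0.05.

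*Kif21b* had the smallest p of the members in the frontal cortex. It was 114, 105 and 100.1 CPM in the WT libraries and 90.3, 87.6 and 89.1 CPM in the *Pcm1-/-* libraries. The genotypes did not overlap, and the difference was −0.27 (SE 0.06, unadjusted p = 0.00147, adjusted p = 0.0657). It passed the threshold with DESeq2 (adjusted p = 0.0125), with no filter on low counts (0.0462), with the replicate number as a block (0.0386) and without WT replicate 3 (−0.31, adjusted p = 0.0181). Of all genes tested, 3.92%, 2.22%, 3.79% and 4.70% were called under these settings. In both frontal cortex groups replicate 2 was the library in which *Ddx3y* exceeded *Xist*, so the block also sets libraries alike in sex side by side. In the striatum *Kif21b* was 52.2, 56.2 and 56.4 CPM in WT and 53.3, 55.1 and 50.5 CPM in *Pcm1-/-* libraries, and in the hippocampus 60.5, 64.6 and 57.2 and 63.3, 73.2 and 61.3 CPM, with overlap in both. Its genotype effect had the smallest p of the members for a difference between regions, an unadjusted p of 0.00666 (adjusted p = 0.582). In that test 0 members were called beside 0.0114% of all genes, 2 members were under an unadjusted p of 0.05 beside 5.54% of all genes, and DESeq2 called 0 beside 0.536% of all genes. The third smallest was *Kif7*, a Hedgehog regulator at the tip of primary cilia, at 1.58, 1.75 and 1.92 CPM in WT and 1.29, 1.27 and 1.34 CPM in *Pcm1-/-* frontal cortex, a difference of −0.44 there (SE 0.17, adjusted p = 0.271). In the striatum and hippocampus its genotypes overlapped, and the test of the difference between regions gave an unadjusted p of 0.122.

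*Kif23* and *Klc4* were among the 3 smallest p-values in both the frontal cortex and the hippocampus. *Kif23* had 41, 40 and 35 reads in WT and 30, 30 and 26 in *Pcm1-/-* frontal cortex, and 13, 6 and 8 against 4, 5 and 4 in the hippocampus. Both regions showed no overlap in reads, with differences of −0.62 (SE 0.18, adjusted p = 0.154) and −1.13 (SE 0.49, adjusted p = 0.509), and the striatum had 33, 41 and 29 against 25, 31 and 36 reads, which overlap. Cycling cell markers summed to 4.22 to 4.42 CPM in WT and 2.74 to 3.45 CPM in *Pcm1-/-* frontal cortex. By sign 5 of the 6 were lower and 1 higher, with none called, and their part was not tested. *Klc4* was 17.6, 17.9 and 17.2 CPM in WT and 15.5, 14.9 and 15.3 CPM in *Pcm1-/-* frontal cortex, without overlap, a difference of −0.21 (SE 0.07, adjusted p = 0.183). In the hippocampus it was 15.4, 13.2 and 14.8 against 12.1, 11.7 and 13.3 CPM, which overlap slightly, at −0.24 (SE 0.11, adjusted p = 0.524). The remaining members under an unadjusted p of 0.05 in the frontal cortex were *Kif1a* (−0.14), *Kif13b* (−0.26) and *Dync1i2* (−0.11).

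In the striatum the smallest p was that of *Kif13b*, at 48.2, 45.2 and 44.5 CPM in WT and 35.6, 42.6 and 32.1 CPM in *Pcm1-/-* libraries. The groups did not overlap and differed by −0.32 (SE 0.10, unadjusted p = 0.0149, adjusted p = 0.252). *Kif13a* was 56.9, 57.2 and 58.3 against 48.9, 56.0 and 47.2 CPM, at −0.18 (SE 0.08, adjusted p = 0.361). In the frontal cortex *Kif13b* was 17.1, 18.03 and 15.9 CPM in *Pcm1-/-* libraries against 17.8 to 23.2 CPM in WT libraries, which overlap. The oligodendrocyte marker sum was 5596 to 9119 CPM in *Pcm1-/-* against 9223 to 9422 CPM in WT striatum and 1712 to 1811 against 1903 to 2544 CPM in frontal cortex. All 6 markers were lower in each region, 4 of 6 at an unadjusted p under 0.05 in both, none called, none at 0. Their part in the *Kif13b* values was not tested. *Kif26b* was 11.5, 12.97 and 10.4 CPM in WT and 16.2, 12.6 and 14.7 CPM in *Pcm1-/-* striatum, with overlap, a difference of 0.32 (SE 0.13, adjusted p = 0.328). *Kif27* was 12.1, 13.004 and 14.3 against 17.5, 14.3 and 15.1 CPM, at 0.25 (SE 0.11, adjusted p = 0.364), while the ependymal sum was 27.1 to 57.1 against 42.6 to 60.7 CPM.

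In the hippocampus *Dynll1*, the LC8 light chain shared by dynein and other complexes, was 91.8, 98.0 and 102 CPM in WT and 121, 112 and 109.9 CPM in *Pcm1-/-* libraries. All mutant libraries were above all WT libraries, by 0.22 (SE 0.08, unadjusted p = 0.0211, adjusted p = 0.440). In the frontal cortex and striatum the *Dynll1* groups overlapped, at 94.2, 93.1 and 102 against 98.3, 92.7 and 96.3 CPM and at 84.4, 83.1 and 65.3 against 85.0, 79.9 and 83.6 CPM.

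**Figure D5:**
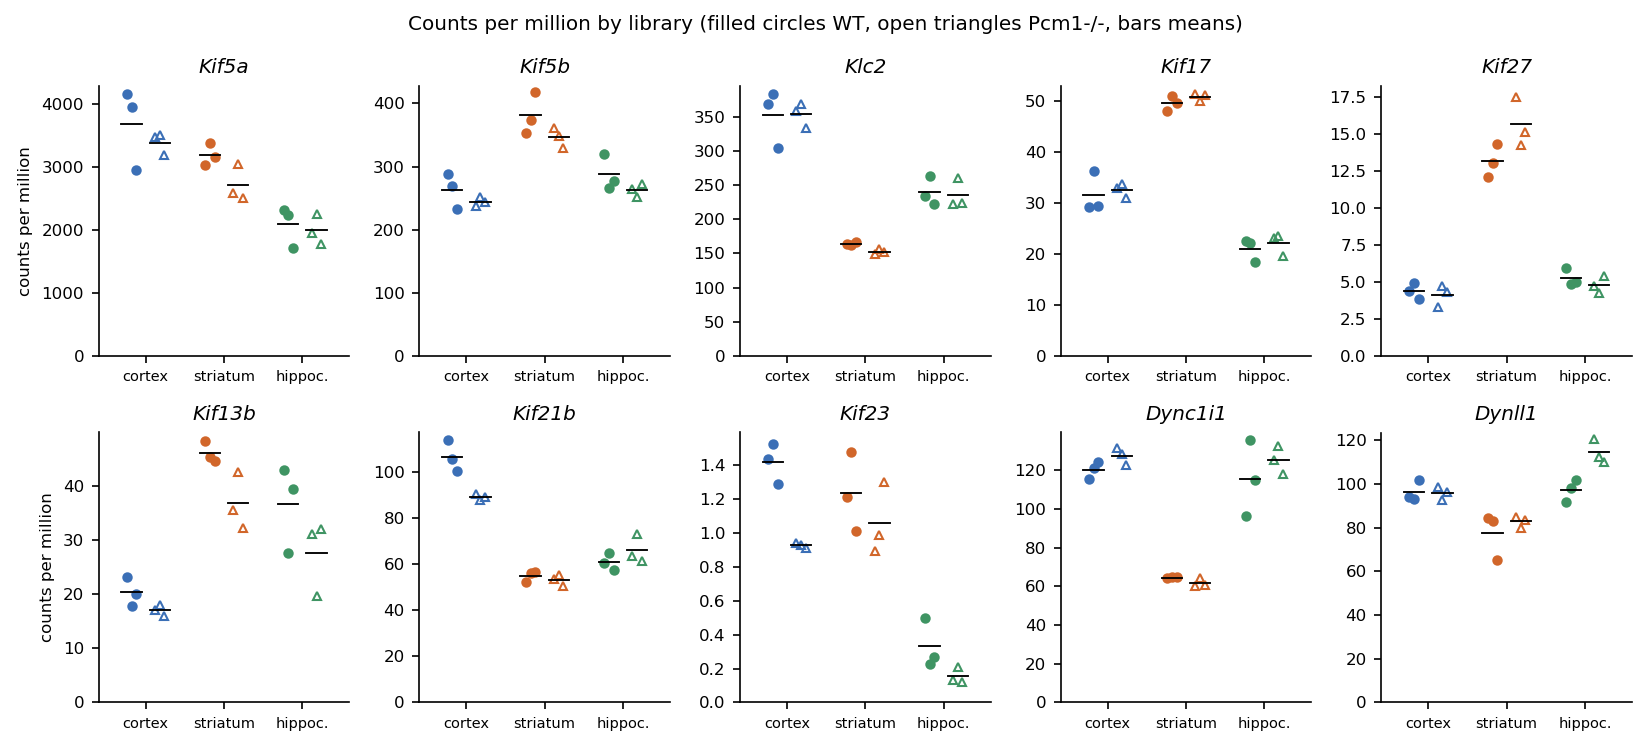
CPM in each of the 18 libraries for *Kif5a*, *Kif5b*, *Klc2*, *Kif17*, *Kif27*, *Kif13b*, *Kif21b*, *Kif23*, *Dync1i1* and *Dynll1*, by region, with filled circles for WT and open triangles for *Pcm1-/-* libraries. Regions separate *Klc2* and *Kif17*, and the genotypes separate *Kif21b* in the frontal cortex only, by −0.27 on the log2 scale.

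The core subunits, described whatever their result, showed small genotype differences. *Kif5a* was 3467, 3506 and 3182 CPM in *Pcm1-/-* frontal cortex, inside the WT range that frontal cortex replicate 3 widens, a difference of −0.13, and it was −0.27 (adjusted p = 0.0318) without that library and 0.01 with sequencing lane as a term. In the striatum *Kif5a* was 2589.8, 3041 and 2503 CPM in *Pcm1-/-* against 3035 to 3372 CPM in WT, at −0.23 (SE 0.10, unadjusted p = 0.0444, adjusted p = 0.361), and in the hippocampus 1948, 2244 and 1783 CPM, within the WT range, at −0.08. *Kif5c* ran the other way in the frontal cortex, with 1425, 1399 and 1357 CPM in *Pcm1-/-* against 1164 to 1348 CPM in WT (0.11), and in the hippocampus, with 1253, 1273 and 1144 against 994 to 1149.6 CPM (0.17). The share of *Kif5c* among the heavy chains per kb was 24.5% ± 1.84 in WT and 27.5% ± 0.62 in *Pcm1-/-* frontal cortex, 24.1% ± 0.28 and 27.0% ± 2.78 in striatum, and 31.2% ± 2.07 and 35.1% ± 1.31 in hippocampus (SD, n = 3 each). *Kif5b* differed by −0.12, −0.14 and −0.15 in frontal cortex, striatum and hippocampus. *Dync1h1* differed by −0.25, −0.16 and −0.15, with 540.3, 450.2 and 601 CPM in *Pcm1-/-* frontal cortex overlapping a wide WT spread of 544 to 783 CPM. *Dctn1* differed by −0.02, −0.01 and 0.02, and each of these changed sign when single libraries were left out.

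The dynein and dynactin sets showed no shared direction, with role medians between −0.06 and 0.05 over the 3 regions. *Dctn6* lies 7.13 Mb from *Pcm1* on chromosome 8 and was 46.8, 49.2 and 47.2 CPM in WT and 51.3, 50.02 and 50.2 CPM in *Pcm1-/-* frontal cortex, without overlap, and its groups overlapped in the striatum and hippocampus. Among the 45 other transport genes 0 were called between genotypes in each region, beside 1.74%, 0.0285% and 0.0171% of all genes, with 5, 4 and 2 at an unadjusted p under 0.05, beside 15.3%, 13.5% and 9.89%.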

How the data were processed

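Messenger RNA was sequenced from frontal cortex, striatum and hippocampus of WT and *Pcm1-/-* mice with stranded libraries. The deposited values are raw counts per gene and library. To make them, the authors used Trim Galore and cutadapt for trimming, STAR for alignment to GRCm38, a filter that keeps reads with 1 position, and HTSeq with Ensembl genes for counting. Tool versions and the strand setting of the counting are not given in the sources used here. Of the counted genes, 36639 of 38561 had a name and position in GENCODE M21 of the same build. Rows of reads on no gene or on several were left out, so that 86.8% to 89.2% of the tallied reads remained.

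The 17545 genes that reached 10 counts in any of the 18 libraries entered edgeR 4.0.16 (R 4.3.3), with TMM scaling, its quasi-likelihood test and p-values adjusted by Benjamini-Hochberg, for genotype within each region, for regions within each genotype and for a genotype effect that differs between regions. The alternatives were DESeq2 1.42.0 or its size factors, different count filters, a joint fit, terms for lane, length and block, and each library left out. The steps were tested on simulated data. Python 3.11.15, pandas 2.3.3 and matplotlib 3.10.9 gave the tables and plots.

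The members, roles and lists were chosen with earlier results of these data known. Values per library are given for the 3 smallest p-values of each genotype comparison and of the interaction, up to 4 rises and 4 falls per WT regional comparison (average log2 CPM of at least 1 and groups apart), and 6 core subunits. Other per-library values and the promoters shown were chosen after the values were seen. After removal of group means, WT and *Pcm1-/-* libraries with 1 number correlated at 0.0428, 0.260 and 0.197 in frontal cortex, 0.0955, 0.507 and 0.194 in hippocampus and 0.178, −0.156 and −0.269 in striatum. In each region at least 1 pair was under 0.1, and the genotypes are different animals, so between genotypes the replicate number stands as an alternative. The 3 regions of a genotype came from the same mice. The reported regional tests hold no term for the animal, so their p-values leave this pairing out. Library 2 was the one with more *Ddx3y* than *Xist* in every group but WT striatum, where it was library 3 and the numbers do not follow the animal numbers of the file names. With the WT striatum libraries renumbered by animal, the striatal correlations were 0.230, 0.0635 and 0.388. Nothing in the labels says which libraries share a litter, and the p-values measure the spread between these libraries. Proteins were not analysed here.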

Additional observations from a re-analysis of the deposited data

How the results depend on the processing

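In the regional comparisons all 54 counts of members called that other settings gave stayed within 1.5 times the reported count. Between genotypes and for the interaction the reported counts are 0, of which a ratio says nothing, and 27 of 30 were 0 again. Between genotypes in the frontal cortex 1 member was called, *Kif21b*, with DESeq2, with no filter on low counts and with the replicate block, and 2 were called, *Kif21b* and *Kif5a*, without WT replicate 3, so that leaving out single libraries gave 0 to 2. All genes called in these settings numbered 687, 544, 665 and 825, against 306 reported, and the number fell to 29 with lane as a term and to between 11 and 88 when any of the other 5 libraries was left out. With the replicate block the counts were 26, 19 and 12 in the WT regional comparisons (striatum and frontal cortex, hippocampus and frontal cortex, striatum and hippocampus), 37, 27 and 26 in *Pcm1-/-* mice, and 1, 0 and 0 between genotypes, and a block by the animal number of the file names gave 30, 26 and 18 in WT mice. In WT striatum the labels' replicate numbers do not follow the animal numbers of the file names: libraries of 1 replicate number correlated with frontal cortex at −0.103, −0.270 and −0.158 and those of 1 animal number at 0.263, 0.327 and 0.324. The block by replicate number thus sets different animals side by side there. Under it *Klc3* lost its call between WT striatum and hippocampus (adjusted p = 0.0602). Leaving out single libraries gave 21 to 29, 17 to 23 and 11 to 16 members in WT mice. It also ended the call of *Klc3* in 5 of the leave-outs and that of *Kif19a* in WT hippocampus against frontal cortex in 3. *Kif5c* and *Dync1h1* in that comparison gained a call with DESeq2, in 1 fit of all 18 libraries and with the block by animal. With lane as a term the sign changed for *Kif5a* (0.014) and *Dctn1* (0.0195) between genotypes in the frontal cortex, for *Kif5a* (0.091) and *Dctn1* (0.025) between WT striatum and frontal cortex, and for *Dync1h1* (−0.0034) between WT striatum and hippocampus. Leaving out single libraries took *Dctn1* between genotypes from −0.050 to 0.011 (frontal cortex), −0.054 to 0.022 (striatum) and −0.034 to 0.059 (hippocampus), and from −0.0069 to 0.068 between WT striatum and hippocampus. It took *Kif5c* from −0.035 to 0.034 and *Dync1h1* from −0.30 to 0.027 between genotypes in the striatum, and *Kif1a* from −0.039 to 0.0060 between WT striatum and hippocampus. The cause was not tested. Lane as a term was not run between genotypes in the striatum, where it is confounded with genotype. The biological spread between libraries (edgeR's coefficient of variation) was 9.49% for frontal cortex, 13.8% for striatum and 16.4% for hippocampus, which with 3 libraries a group limits what small differences can pass.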
